A study of Mus musculus with 4 samples.

Results

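Type I interferon-stimulated antiviral genes were followed as a set of 35 genes of known function, picked by gene symbol from the deposited table of reads per gene. The set was chosen with earlier results of these data known. All 35 symbols were found once among the 38087 genes of that table, and all 35 passed the filter on low counts that 20695 genes passed. They were compared between 2 libraries of Becn1-M-KO mice (here KO) and 2 libraries of wild-type (WT) mice. The Becn1-M-KO mice lack Becn1, the gene of the autophagy protein Beclin-1, in myeloid cells, and the series calls their samples B cell lymphomas. The WT samples are described as cervical lymph node controls, with no Becn1 deletion given. All 4 samples are labelled cervical lymph node, strain C57BL/6, postnatal week 20. The driver of the myeloid deletion is not given in the sources used here, and genotype and tumour cannot be told apart. Reads of sex-linked genes, given below, also split by group, so sex cannot be told apart from them either.

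Type I interferons (interferon alpha and beta) are secreted after a cell detects foreign or misplaced nucleic acid. They bind the receptor made of IFNAR1 and IFNAR2, whose kinases JAK1 and TYK2 phosphorylate transcription factors, STAT2 among them. Together with IRF9 these bind the interferon-stimulated response element, a DNA motif in front of many antiviral genes. Interferon gamma uses its own receptor but shares part of the signalling, so the gene sets of both kinds of interferon overlap in part. In lymph nodes, plasmacytoid dendritic cells, macrophages and other cells can produce type I interferon, and nearly every cell type can respond to it.

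Across the 35 genes the KO levels were higher on balance than the WT levels, but no single gene passed the test with all 4 libraries. Zbp1, Samhd1, Dtx3l, Oas3, Ifit2, Parp14, Trim30a, Parp9, Herc6, Bst2, Ifitm3, Isg15, Oas2 and Mx1 had KO levels more than 2-fold those of WT on average. At the other end, Ifit1, Rsad2, Usp18, Cmpk2, Rtp4, Ifih1 and Ifi44, which are also textbook interferon targets, had fold changes near 1 or below it. The median log2 fold change of the 35 genes was 0.78, beside 0.01 over all 20695 genes tested. The fold change was above 0 for 29 of the 35 genes and below 0 for 6, while 50.5% of all tested genes were positive.

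Levels are given as CPM, the reads of a gene relative to the size of its library, scaled by the trimmed mean of M-values (TMM) in edgeR, and the test is edgeR's quasi-likelihood test with Benjamini-Hochberg adjustment over all tested genes and a threshold of 0.05. With it, 0 of 35 genes were called in either direction, against 1.04% of all tested genes called higher and 2.18% called lower. At an unadjusted p under 0.05, 15 of 35 were higher (10.5% of all tested genes) and 0 were lower (16.4%). The smallest adjusted p was 0.0611, for Parp9. DESeq2 on the same libraries called 10 of the 35 higher and 0 lower, where 5.67% and 10.6% of all genes it adjusted were called. Without the count filter edgeR called 2 higher, Herc6 and Dtx3l, and 0 lower (1.75% and 3.84% of all genes). Limma-voom called 0, where it called 1.21% and 1.95% of all tested genes. None of the 35 was called either by edgeR's test against a log2 fold change of 1 (0.0773% of all tested genes higher, 0.116% lower) or by limma on the authors' deposited log2 values (0.425% and 0.705%). Whether both samples of a group are separate animals is not stated in the labels. The p-values therefore reflect the spread of these particular libraries, part of which could be technical.

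The libraries held 15604247 and 20067004 reads in KO and 16141605 and 17874699 in WT. WT replicate 1 stood apart: reads of 6 B cell markers summed to 1781 and 1707 CPM of the library total in KO, but to only 5.02 there and 1228 in WT replicate 2. Reads of 6 T cell markers summed to 421 and 406 CPM of the library total in KO and to 4.34 and 545 in WT, so the lymphocyte markers that define a node were nearly absent from WT replicate 1. Both WT libraries held epithelial markers (sum over 7 genes of 30.0 and 40.1 CPM of the library total in KO, and 1516 and 1274 in WT). Sex-linked genes also differed: Xist, which is transcribed from the inactive X chromosome, had 3 and 34 reads in KO and 2088 and 5314 in WT. Ddx3y, on the Y chromosome, went the other way, with 928 and 1440 reads in KO and 17 and 53 in WT. By these reads the groups differed in sex, so sex cannot be told apart from genotype or tumour. Becn1 itself had 49.5 and 53.3 CPM in KO and 54.8 and 63.4 CPM in WT (log2 fold change −0.20, SE 0.21, adjusted p = 0.557), and a deletion in myeloid cells alone is not checked by whole-tissue reads.

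Whether these differences bear on the levels below was not tested. The KO libraries agreed closely on the 35 genes, with a ratio of KO replicate 1 to KO replicate 2 between 0.826 (Rsad2) and 1.21 (Cmpk2). The ratio of WT replicate 1 to WT replicate 2 ran from 0.10 (Oas3) to 4.09 (Oasl2). It was over 2 for 5 genes and below 0.5 for 7. The fold changes are therefore also plotted against each WT library alone. In those fits 1 WT library is left and is assumed to vary like the KO pair, so their p-values say nothing of the spread between WT samples. In these whole-tissue samples, fewer cells of a type and less RNA per cell cannot be told apart.

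The element bound by IRF9 and its partners was looked for in front of these genes, and the promoters are shown to let its letters be read. RefSeq promoter windows (GRCm38.p6, 250 bases before to 50 after the start site) were listed for 25 of the 35 genes. The core of the interferon-stimulated response element was searched on both strands as GAAANNGAAA and its reverse complement TTTCNNTTTC, where N is any base and matches may overlap each other. It was found for 12 of the 25 genes (48.0%), against 3.99% of the 27025 genes in the table. Promoters of 3 genes whose KO levels lay above both WT levels (Isg15, Bst2 and Ifitm3) are shown beside 2 genes for which they did not (Ifit1 and Rsad2), each 5′ to 3′ on the gene's own strand with the matches in capitals. The windows are chr4:156200769-156201068 (minus strand) for Isg15, chr8:71537423-71537722 (minus) for Bst2, chr7:141010695-141010994 (minus) for Ifitm3, chr19:34640639-34640938 (plus) for Ifit1 and chr12:26456403-26456702 (minus) for Rsad2.
Isg15: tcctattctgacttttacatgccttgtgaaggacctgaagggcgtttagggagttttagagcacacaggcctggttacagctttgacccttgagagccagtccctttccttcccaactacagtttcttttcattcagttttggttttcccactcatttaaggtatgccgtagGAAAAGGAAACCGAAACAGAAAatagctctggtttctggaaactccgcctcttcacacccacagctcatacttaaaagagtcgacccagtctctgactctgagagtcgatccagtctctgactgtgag
Bst2: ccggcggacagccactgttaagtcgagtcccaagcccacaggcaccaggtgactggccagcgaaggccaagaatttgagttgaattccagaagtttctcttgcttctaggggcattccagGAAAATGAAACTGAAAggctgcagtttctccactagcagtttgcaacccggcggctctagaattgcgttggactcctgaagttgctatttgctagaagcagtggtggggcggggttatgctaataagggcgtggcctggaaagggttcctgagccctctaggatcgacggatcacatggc
Ifitm3: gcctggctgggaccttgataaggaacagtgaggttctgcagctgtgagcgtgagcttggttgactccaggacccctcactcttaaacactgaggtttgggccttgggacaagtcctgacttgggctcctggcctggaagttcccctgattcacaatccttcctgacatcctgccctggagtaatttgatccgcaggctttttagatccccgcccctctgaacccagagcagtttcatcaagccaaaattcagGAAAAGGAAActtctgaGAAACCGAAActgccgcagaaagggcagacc
Ifit1: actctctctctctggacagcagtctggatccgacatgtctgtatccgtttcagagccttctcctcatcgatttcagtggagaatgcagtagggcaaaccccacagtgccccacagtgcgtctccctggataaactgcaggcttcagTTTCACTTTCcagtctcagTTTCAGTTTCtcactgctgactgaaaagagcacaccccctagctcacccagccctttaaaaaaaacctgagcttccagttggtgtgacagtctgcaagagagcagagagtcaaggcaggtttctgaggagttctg
Rsad2: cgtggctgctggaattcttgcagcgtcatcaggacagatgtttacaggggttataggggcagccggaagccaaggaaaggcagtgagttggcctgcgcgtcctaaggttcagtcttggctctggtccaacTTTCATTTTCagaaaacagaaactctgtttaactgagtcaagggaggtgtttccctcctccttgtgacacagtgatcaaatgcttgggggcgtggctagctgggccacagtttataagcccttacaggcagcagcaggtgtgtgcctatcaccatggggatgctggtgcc
Counted from the start site as base 1, the first bases of the matches lay at −78, −72 and −66 in Isg15, a run of overlapping matches. They lay at −130 and −124 in Bst2, at 3 and 20 in Ifitm3, at −104 and −85 in Ifit1 and at −120 in Rsad2. Having a match did not go with a larger difference in these libraries. The median log2 fold change was 0.67 for the 12 genes with a match and 0.67 for the 13 without one. Both KO values lay above both WT values for 8 of 12 and 9 of 13, and for 34.3% of all tested genes. A match is a description of the letters in the window, not evidence of binding.

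**Figure D1:**
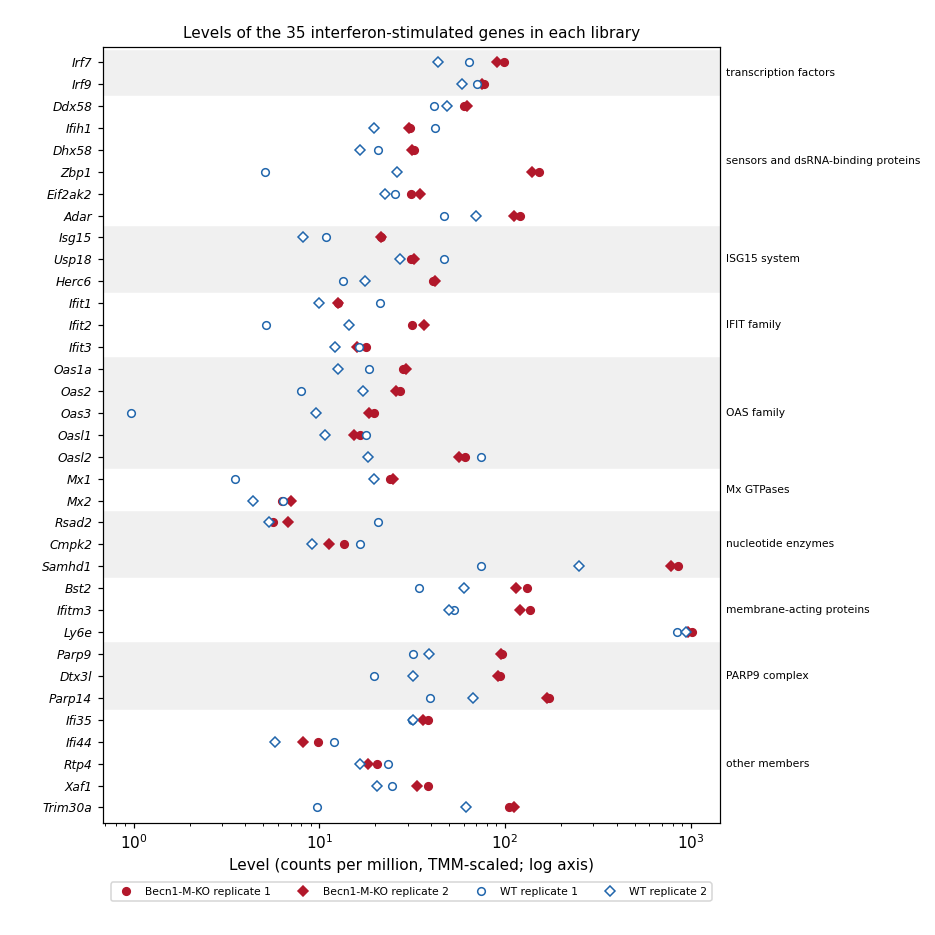
Level of each of the 35 genes (rows, grouped by role) in the 4 libraries on a log axis of TMM-scaled CPM, with KO as filled red symbols and WT as open blue ones (circle, replicate 1 and diamond, replicate 2). The KO symbols nearly coincide in every row, while the WT symbols are far apart for genes such as Oas3 (0.966 and 9.63 CPM) and Oasl2 (74.8 and 18.3 CPM). Rows are not comparable with each other, since levels are not divided by gene length.

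In the plot of levels by library, both KO values lay above both WT values for 24 of the 35 genes, where 34.3% of all tested genes did so. For 0 of the 35 did both KO values lie below both WT values (33.3% of all tested genes). The remaining 11 genes overlapped. WT replicate 2 lay below both KO libraries for all 35 genes, and WT replicate 1 lay above both of them for 9. The shares of all tested genes in either position were not counted. In each overlap it was WT replicate 1 that reached the KO levels. That library had a TMM factor of 0.513, against 1.28 and 1.30 in KO and 1.18 in WT replicate 2, so its scaled levels rest on that factor. By CPM of the library total, KO lay above WT for 34 of 35 and below for 0, against 51% and 15% of all tested genes. That scaling moves the median log2 fold change of all tested genes to 0.60, and that of the 35 genes to 1.33.

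A pair of transcription factors of the pathway belong to the set. Irf7, the factor that amplifies interferon alpha production, lies on chromosome 7 from 141262706 to 141266481. It had 98.9 and 90.3 CPM in KO, against 64.0 and 43.4 CPM in WT. The KO values were the higher ones without overlap, a 1.76-fold difference in means (log2 fold change 0.82, SE 0.29, adjusted p = 0.179). Irf9, the DNA-binding partner of STAT2, had 77 and 75.1 CPM in KO and 70.9 and 58.4 CPM in WT, which is close to equal (0.23, SE 0.22, adjusted p = 0.530). Irf7 overlaps the end of Phrf1 by 45 bases on the opposite strand and Irf9 overlaps Rnf31 by 123 bases on its own, so a few reads may be shared.

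Among the sensors of foreign RNA and DNA, Zbp1 differed most. It encodes a sensor of left-handed (Z-form) nucleic acid that can start necroptosis, and lies on chromosome 2 from 173206612 to 173218923. Zbp1 had 152 and 139.9 CPM in KO, against 5.07 and 26.3 CPM in WT. Both KO libraries were far above both WT libraries, which themselves differed 5.19-fold (log2 fold change 3.20, SE 0.88, adjusted p = 0.126). The value was 4.83 against WT replicate 1 alone and 2.47 against WT replicate 2 alone, and DESeq2 called it (3.24, adjusted p = 0.00141). Adar, whose product edits adenosine in double-stranded RNA and has an interferon-inducible form, followed with 119.9 and 112 CPM in KO and 47.2 and 69.4 CPM in WT (0.99, SE 0.29, adjusted p = 0.138). Dhx58, which encodes LGP2, a regulator of the RNA sensors, had 32.4 and 31.6 CPM in KO and 20.8 and 16.5 CPM in WT (0.78, SE 0.22, adjusted p = 0.130). Dhx58 overlaps Gm11547 on the opposite strand over 2637 bases, and Gm11547 had 0.388 times as many reads.

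The RNA sensors themselves differed less. Ddx58, the gene of RIG-I, had 60.5 and 62.2 CPM in KO and 41.5 and 48.9 CPM in WT (0.44, SE 0.21, adjusted p = 0.266). Ifih1, the gene of MDA5, had 30.8 and 30.3 CPM in KO and 42.0 and 19.7 CPM in WT, so that KO lay between the WT libraries (−0.01, SE 0.42, adjusted p = 0.991). Eif2ak2, the gene of the translation-blocking kinase PKR, had 31.0 and 34.7 CPM in KO and 25.6 and 22.6 CPM in WT (0.45, SE 0.20, adjusted p = 0.249).

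ISG15 is a small protein that interferon induces and that is joined to other proteins like ubiquitin. Isg15 lies on chromosome 4 from 156199424 to 156200818, and its promoter above held 3 matches. Its level was 21.4 CPM in each KO library, against 10.9 and 8.16 CPM in WT. The groups did not overlap, with a 2.25-fold difference in means (1.17, SE 0.25, adjusted p = 0.0870). Herc6, the mouse ligase that attaches ISG15, was also apart, with 40.9 and 41.8 CPM in KO and 13.4 and 17.6 CPM in WT (1.41, SE 0.23, adjusted p = 0.0648). Usp18, the protease that removes ISG15 and dampens signalling at the receptor, did not follow them. It had 31.2 and 32.6 CPM in KO and 46.9 and 27.1 CPM in WT, with the KO values between the WT ones (−0.21, SE 0.33, adjusted p = 0.703).

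The IFIT genes encode proteins that bind viral RNA or block its translation, and lie together on chromosome 19. Ifit2 (34550694 to 34576419) had 31.7 and 36.6 CPM in KO, against 5.19 and 14.4 CPM in WT. That is a 3.48-fold difference without overlap (1.78, SE 0.55, adjusted p = 0.147). Ifit1 (34640871 to 34650009), with 2 matches in the promoter shown, had 12.6 CPM in each KO library, against 21.1 and 9.92 CPM in WT. Its KO levels lay between those of WT, and no difference was shown (−0.29, SE 0.43, adjusted p = 0.688). Ifit3 had 17.9 and 15.9 CPM in KO and 16.3 and 12.2 CPM in WT (0.25, SE 0.26, adjusted p = 0.560). How reads from near-identical copies in the IFIT, OAS and TRIM30 clusters were assigned is not given in the sources used here, so the levels of Ifit1, Ifit3, Oas1a and Trim30a are uncertain to that extent.

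The OAS enzymes make a short 2′-5′-linked adenylate that switches on RNase L, which cuts RNA; the OAS-like genes Oasl1 and Oasl2 are their relatives. Oas3 had 19.7 and 18.6 CPM in KO and 0.966 and 9.63 CPM in WT, where WT replicate 1 held only 8 reads (1.80, SE 1.02, adjusted p = 0.328). Oas2 had 27.1 and 25.9 CPM in KO and 7.97 and 17.1 CPM in WT (1.07, SE 0.43, adjusted p = 0.214). Oas1a had 28.1 and 29.2 CPM in KO and 18.6 and 12.6 CPM in WT (0.88, SE 0.27, adjusted p = 0.149). The 3 OAS genes had higher levels in both KO libraries than in either WT library, as did 34.3% of all tested genes. None of the 3 passed the test. Oasl2 went another way in WT, where replicate 1 was highest of the 4 libraries: 60.6 and 56.4 CPM in KO, against 74.8 and 18.3 CPM in WT (0.33, SE 0.72, adjusted p = 0.782). Oasl1 had 16.6 and 15.4 CPM in KO and 17.9 and 10.7 CPM in WT (0.17, SE 0.33, adjusted p = 0.759).

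The Mx genes encode dynamin-like GTPases that trap viral components, and many laboratory mouse strains, C57BL/6 among them, carry a defective Mx1. Mx1 reads had 23.9 and 25.0 CPM in KO and 3.50 and 19.8 CPM in WT (1.05, SE 0.83, adjusted p = 0.460). The KO values were close to WT replicate 2 (log2 fold change 0.31 against it alone) and far from WT replicate 1 (2.79). Mx2 had 6.29 and 7.01 CPM in KO and 6.40 and 4.39 CPM in WT (0.31, SE 0.33, adjusted p = 0.566).

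3 members act on nucleotides. Samhd1, whose product breaks down deoxynucleotides and so starves reverse transcription, spans bases 157097533 to 157135265 of chromosome 2. It reached 859.7 and 786 CPM in KO, against 74.2 and 249.6 CPM in WT. The KO libraries stood 5.08-fold above WT in means, without overlap (2.35, SE 0.71, adjusted p = 0.144), and DESeq2 called it (2.38, adjusted p = 0.00780). Rsad2, which encodes viperin, the producer of a chain-terminating nucleotide, had the lowest fold change of the set. It had 5.63 and 6.82 CPM in KO and 20.8 and 5.34 CPM in WT, so the KO levels were near those of WT replicate 2 and below WT replicate 1 (−1.05, SE 0.72, adjusted p = 0.399). Cmpk2, its neighbour on chromosome 12 and a nucleotide kinase gene, had 13.5 and 11.2 CPM in KO and 16.7 and 9.11 CPM in WT (−0.05, SE 0.38, adjusted p = 0.941).

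Of the members that act at membranes, Ifitm3 and Bst2 stood well apart between the groups, while the Ly6e groups were close without overlapping. Ifitm3, which hinders virus fusion in endosomes, lies on chromosome 7 from 141009586 to 141010770. It had 136 and 119.9 CPM in KO, against 53.0 and 50 CPM in WT. Here the WT libraries were alike, giving 1.31 on the log2 scale (SE 0.23, adjusted p = 0.0671), with 1.26 and 1.36 against WT replicates 1 and 2 alone. Bst2, the gene of tetherin, which holds budding virus at the cell surface and is also a plasmacytoid dendritic cell marker, had 131 and 115 CPM in KO and 34.4 and 59.9 CPM in WT (1.38, SE 0.36, adjusted p = 0.117). Siglech, the more specific marker of those cells, had 6.74 and 8.98 CPM in KO and 1.45 and 28 CPM in WT, and its part in the Bst2 value was not tested. Ly6e, which limits coronavirus entry, had 1017 and 970.5 CPM in KO and 841 and 941 CPM in WT (0.16, SE 0.39, adjusted p = 0.814).

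PARP9, its partner ligase DTX3L and PARP14 form an ADP-ribosylation module that is induced by both kinds of interferon, and their genes lie side by side on chromosome 16. This was the role group in which every member had an adjusted p under 0.1. Parp9 (35938470 to 35972605) had 96.3 and 95.4 CPM in KO, against 32.0 and 39.0 CPM in WT. Dtx3l (35926511 to 35939151) had 94.3 and 92.2 CPM in KO, against 19.8 and 31.9 CPM in WT. Parp14 (35832874 to 35871544) had 172 and 168 CPM in KO, against 39.3 and 67.1 CPM in WT. All 3 genes were 2.70- to 3.61-fold higher in means, with groups well apart. The log2 fold changes were 1.43 for Parp9 (SE 0.23, adjusted p = 0.0611), 1.85 for Dtx3l (SE 0.32, adjusted p = 0.0666) and 1.67 for Parp14 (SE 0.36, adjusted p = 0.0873). DESeq2 called all 3. Parp9 and Dtx3l overlap head to head by 682 bases on opposite strands, so they may share reads, and Parp9 also spans Gm15564 on the opposite strand, which had 9.36 times its reads.

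Of the other members, Trim30a, a mouse TRIM protein that restrains inflammatory signalling, had 105 and 112 CPM in KO and 9.66 and 61.9 CPM in WT (1.59, SE 0.92, adjusted p = 0.336). Xaf1, a pro-apoptotic gene, had 38.3 and 33.4 CPM in KO and 24.8 and 20.4 CPM in WT (0.67, SE 0.22, adjusted p = 0.161). For both, KO lay above WT, and for Trim30a the WT libraries differed 6.41-fold. Ifi35, Ifi44 and Rtp4 had log2 fold changes of 0.24, 0.03 and −0.04, with adjusted p-values from 0.442 to 0.968. Ifi35 was close to equal in all libraries (38.5 and 36.3 CPM in KO, 31.4 and 31.8 CPM in WT).

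**Figure D2:**
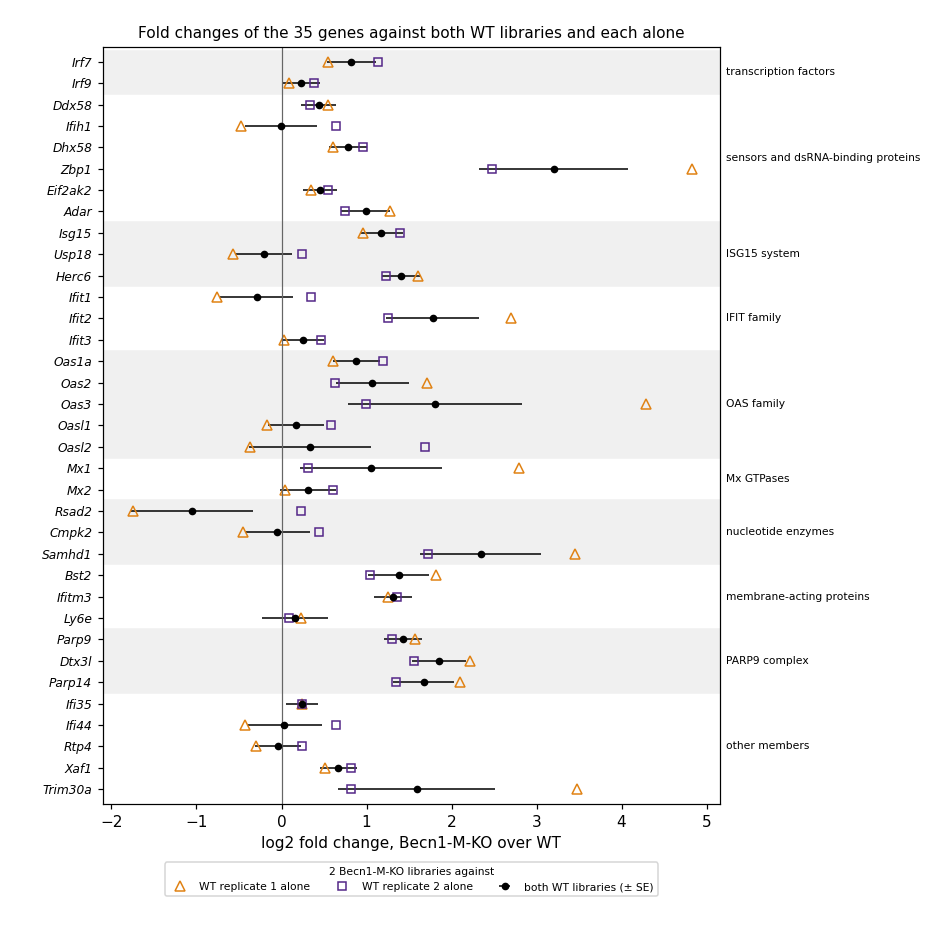
Log2 fold change of each of the 35 genes, KO over WT, with both WT libraries (black, bars ± SE) and with WT replicate 1 alone (orange triangles) or WT replicate 2 alone (purple squares). Against WT replicate 2 alone every square lies above 0, from 0.08 (Ly6e) to 2.47 (Zbp1). In that fit 10989 of all 21844 genes tested lay above 0. Against WT replicate 1 alone the triangles spread from −1.74 (Rsad2) to 4.83 (Zbp1).

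Which genes differed depended on the WT library. Against WT replicate 2 alone, the WT sample with lymphocyte markers, 27 of 35 genes were called higher and 0 lower (20.9% and 22.8% of all tested genes), with a median of 0.74. Against WT replicate 1 alone, 21 were called higher and 6 lower (32.3% and 32.5% of all tested genes), with a median of 0.55. The 20 genes called higher in both included the whole PARP9 module, Isg15, Herc6, Zbp1, Samhd1, Ifitm3, Bst2, Irf7 and all 3 OAS genes, and 17.4% of all genes tested in both fits were called so. The 6 genes called lower against WT replicate 1 were Ifih1, Usp18, Ifit1, Oasl2, Rsad2 and Cmpk2. Against WT replicate 2 alone, the log2 fold changes of these were 0.64 for Ifih1 and 1.68 for Oasl2. They were 0.24 for Usp18, 0.35 for Ifit1, 0.23 for Rsad2 and 0.44 for Cmpk2. Ly6e, Ifi35 and Rtp4 had 0.08, 0.24 and 0.24 against WT replicate 2 alone. Against WT replicate 1 alone they had 0.22, 0.24 and −0.30.

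Shares of reads within a library do not depend on how libraries were scaled. Reads of the 35 genes summed to 73108 and 90509 in KO and to 14852 and 43523 in WT. Samhd1 took 23.4% (95% Clopper-Pearson interval 23.1 to 23.7) and 22.5% (22.3 to 22.8) of them in KO, against 4.13% (3.82 to 4.47) and 12% (11.7 to 12.3) in WT. Ly6e took 27.6% and 27.8% in KO, against 46.9% and 45.3% in WT. Zbp1 took 4.13% and 4.01% in KO and 0.283% and 1.27% in WT, while Rsad2 took 0.153% and 0.196% in KO and 1.16% and 0.257% in WT. Samhd1 and Zbp1 thus made up more, and Ly6e and Rsad2 less, of the reads of the set in both KO libraries than in either WT library. Each share also depends on the other genes of the set, so a smaller share is not a lower level. Ly6e had 1017 and 970.5 CPM in KO and 841 and 941 CPM in WT. The PARP9 module took 10% ± 0.232 in KO and 5.86% ± 1.11 in WT (SD, n = 2 each), and the IFIT genes 1.78% ± 0.122 in KO and 2.07% ± 0.436 in WT, where the groups overlapped. These intervals cover counting error only.

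**Figure D3:**
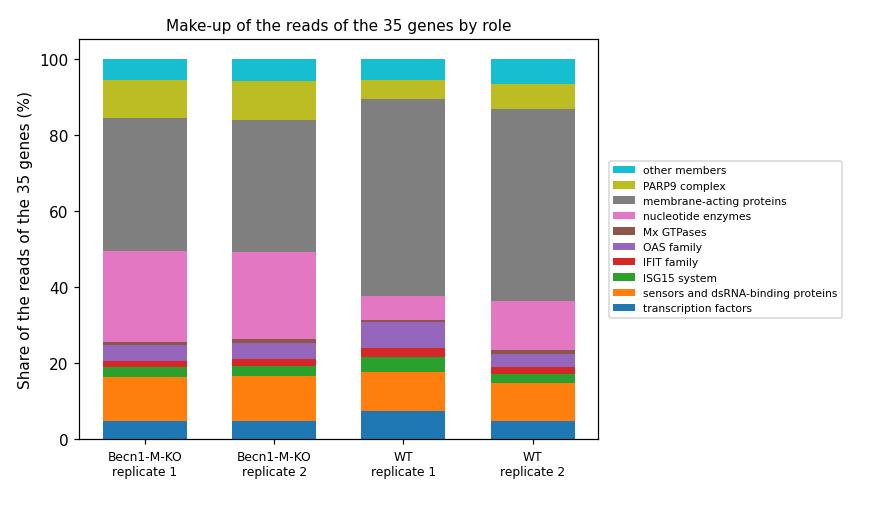
Share of the summed reads of the 35 genes taken by each role group (stacked, in percent) in the 2 KO and the 2 WT libraries. The nucleotide enzymes, mostly Samhd1, make up 23.9% and 23.1% in KO and 6.22% and 12.7% in WT, and the membrane-acting proteins, mostly Ly6e, 34.9% and 34.6% in KO and 51.8% and 50.6% in WT.

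The authors' own comparison listed part of the set. The authors' deposited table of genes with an unadjusted p under 0.05 held 5511 genes, of which 13 were members, all 13 listed as up, while 6.52% of the 38087 genes were listed as up and 7.95% as down. In the authors' deposited table the log2 fold changes of these 13 ran from 0.32 for Ifi35 and 0.49 for Ddx58 to 1.90 for Dtx3l, with 1.75 for Parp14, 1.71 for Herc6 and 1.51 for Parp9. Their shorter deposited lists, of 86 genes up and 71 down out of the 38087, held 0 members each. With so few genes listed, the absence of members says little about the set.

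Genes upstream of the set were read from lists of ligands, receptors with their signalling, and nucleic acid sensing. Reads of interferon genes themselves were nearly absent. Of 19 listed type I and III ligands, 15 matched a gene in the table. Ifnb1 had 0 reads in all 4 libraries. At 95% confidence this puts the expected count below about 3 reads per library, equal to 0.149 to 0.192 CPM of the library total. Of the others, Ifna1, Ifna14 and Ifnab had 1 read each in KO replicate 1 and 0 elsewhere. Ifna7 had 1 read in WT replicate 2, and Ifnk 0 and 1 reads in KO and 4 and 0 reads in WT. None of the ligands passed the filter on low counts, so none was tested in the fit reported. In edgeR without the filter 5 were tested, and 0 were called higher or lower (1.75% and 3.84% of all genes).

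The receptor and signalling genes were present in all libraries. Ifnar1 had 84.6 and 88.7 CPM in KO, against 27.5 and 50.4 CPM in WT (1.15, SE 0.37, adjusted p = 0.155). Ifnar2 had 86.3 and 86.8 CPM in KO, against 50.8 and 57.1 CPM in WT (0.68, SE 0.21, adjusted p = 0.147). Both receptor chains were higher in each KO library than in either WT library, as were 34.3% of all tested genes. Stat2, which the receptor kinases phosphorylate, had 120 and 117 CPM in KO and 104 and 51.0 CPM in WT (0.61, SE 0.42, adjusted p = 0.40). In the list of 18 receptor and signalling genes 0 were called, 17 values were positive (50.5% of all tested genes) and the median was 1.17. At an unadjusted p under 0.05, 8 were higher and 0 lower (10.5% and 16.4% of all tested genes). DESeq2 called 5 higher (5.67% of all genes it adjusted), and limma-voom called 1 higher (1.21%). In the list of 18 nucleic acid sensing genes 0 were called with a median of 1.11. There 7 were higher and 2 lower at an unadjusted p under 0.05, beside the same 10.5% and 16.4%. DESeq2 called 5 of them higher, beside its 5.67%. The 2 lower were Mavs, the adaptor of RIG-I and MDA5, at 25.6 and 24.2 CPM in KO and 65.3 and 36.2 CPM in WT (−1.02, SE 0.35, adjusted p = 0.174), and Tlr3 (−1.10, SE 0.34, adjusted p = 0.146).

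A list of 20 genes that are best known as targets of interferon gamma, with Ifng itself, gave larger values. Ifng had 10 and 9.56 CPM in KO, against 0.121 and 0.382 CPM in WT, where the WT libraries held 1 and 8 reads (5.06, SE 0.53, adjusted p = 0.0456). Of the 20 genes 9 were called higher and 0 lower (1.04% and 2.18% of all tested genes), with a median log2 fold change of 3.93. Both KO values lay above both WT values for all 20, where 34.3% of all tested genes did so. The list shares no gene with the 35, and Socs1 stands in this list and in the signalling list. It was chosen with earlier results of these data known, so its counts beside the shares of all tested genes are a description only. Of the 9, Irgm1, a GTPase of cell-autonomous defence, had 345 and 318 CPM in KO, against 63.3 and 59.7 CPM in WT (2.43, SE 0.27, adjusted p = 0.0461). Cxcl11, a chemokine gene, had 42.2 and 30.6 CPM in KO and 0.483 and 0.334 CPM in WT (6.53, SE 0.38, adjusted p = 0.0370), but it overlaps Art3 and Gm2673. The other 6 that rose were Cxcl10, Gbp2, Igtp, Iigp1, Irgm2 and Nos2, with log2 fold changes from 3.11 to 7.38. The count called higher was 0 with library totals alone, where 0 of all tested genes were called. It was 1 with limma on the authors' deposited log2 values (0.425% of all tested genes). With a KO library left out it was also 0, as it was over all genes tested, while the median stayed at 3.73 (KO replicate 1 left out) or 4.10 (KO replicate 2 left out). The median was 3.33 against WT replicate 2 alone and 5.26 against WT replicate 1 alone. This list and the 35 genes are given side by side, and the difference between them was not tested.

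**Figure D4:**
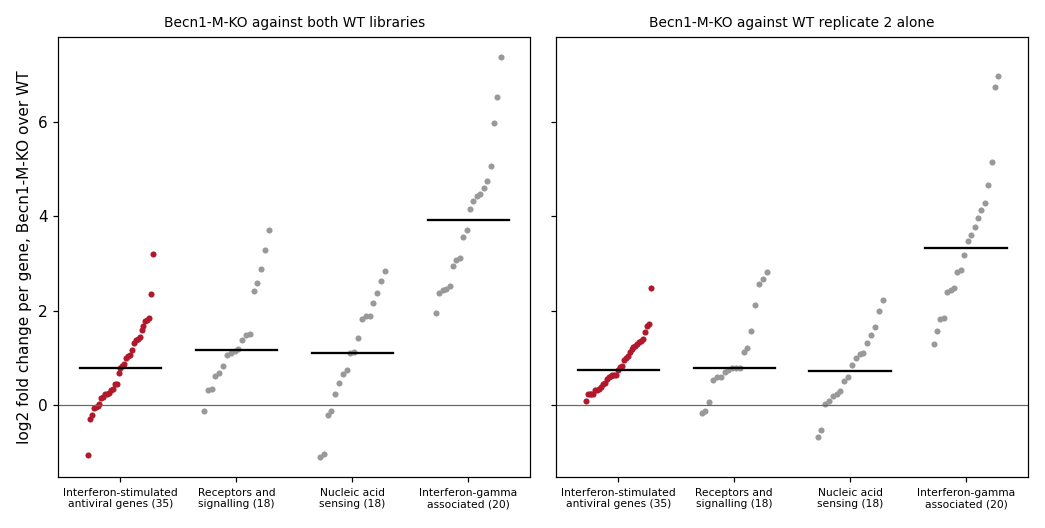
Log2 fold change of each gene, KO over WT, for the 35 interferon-stimulated antiviral genes (red) and the lists of receptors and signalling, nucleic acid sensing and interferon gamma associated genes (grey), with all libraries at left and against WT replicate 2 alone at right. Horizontal bars are medians: 0.78, 1.17, 1.11 and 3.93 at left, and 0.74, 0.78, 0.72 and 3.33 at right.

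Markers of several other cell types differed between the groups, and others split by WT library. Reads of the macrophage and monocyte markers (5 of 6 matched) summed to 1180 and 1089 CPM of the library total in KO and to 43.9 and 250.1 in WT. Of these 5 markers edgeR called 2 higher (1.04% of all tested genes) and DESeq2 5 (5.67% of all genes it adjusted). With library totals alone 0 were called. Neutrophil markers summed to 13.5 and 18.2 in KO and to 0.124 and 7.11 in WT, with S100a8, S100a9, Camp and Ly6g at 0 in WT replicate 1. The 6 plasmacytoid dendritic cell markers, which include Bst2, summed to 1329 and 1310 in KO and to 101 and 620.5 in WT. EdgeR called 0 of these 6 (1.04% of all tested genes higher, 2.18% lower), and DESeq2 called 1 higher, Bst2 (5.67% of all genes it adjusted). Irf8, which also stands in the signalling list, made up 732 and 720.1 of the sums of these 6 in KO and 10.2 and 224 in WT. Siglech was highest in WT replicate 2. Epithelial markers were all lower in KO, 4 of 7 called (2.18% of all tested genes were called lower), with Krt8 and Aqp5 at 0 in KO replicate 1. Erythroid markers (3 of 4 matched) summed to 51.8 and 33.4 in KO and to 336 and 244 in WT. Endothelial markers summed to 278 and 224 in KO and to 37.7 and 285 in WT, where the groups overlapped. Their part in the values of the 35 genes was not tested.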

How the data were processed

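RNA depleted of ribosomal RNA was read with Ion Torrent sequencing (per the labels' protocols) from 2 Becn1-M-KO (KO) and 2 wild-type (WT) samples. The deposited table of reads holds raw counts per gene, with no normalization. The submitters' processing notes name mm10 and DESeq2 1.62 without a role, while aligner and counter are not given in the sources that were used. The listed length of each of the 38087 genes equals its genomic span, so genes that overlap may share reads. The authors also deposited log2 values centred on each gene's median, and a table that gives log2 fold changes and unadjusted p-values, per the file headers. Another 8 columns of per-sample values were not used.

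Counts were fitted with edgeR 4.0.16 (R 4.3.3, glmQLFit and glmQLFTest, TMM, filterByExpr minimum count 10, minimum total 15), KO over WT, with group as the only term. P-values were adjusted over all 20695 genes tested with the Benjamini-Hochberg method at 0.05. The script was tested on simulated data. Levels are TMM-scaled CPM (reads relative to library size), not divided by gene length. Alternatives were DESeq2 1.42.0, limma-voom (limma 3.58.1), other scalings and filters, a replicate block, and each library left out. With 2 libraries against 2, an exact two-sided permutation test cannot go below p = 0.333, so none is given for single genes.

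The 35 genes, their roles and the pathway and marker lists were chosen with earlier results of these data known. All 35 are described, in full those with the smallest p-values of each role group and those that went against most. Promoter sequences come from RefSeq (GRCm38.p6), the assembly that mm10 stands for. A few genes of the pathway and marker lists are not reported here by name.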

Additional observations from a re-analysis of the deposited data

How the results depend on the processing

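Of the 35 genes, 0 were called higher with all libraries and edgeR; without the count filter 2 were (Herc6 and Dtx3l) and with DESeq2 10. Leaving out each library in turn gave 0 to 27 called higher and 0 to 6 called lower, and a median log2 fold change of 0.55 to 0.81. That median was 1.33 with library totals alone and 0.67 over the 25 genes that overlap no other gene. For receptors and signalling, 3 were called higher without the filter, 5 with DESeq2, 1 with limma-voom and 0 to 16 with each library left out. For nucleic acid sensing these were 1 without the filter, 5 with DESeq2 and 0 to 14 with each library left out (0 to 4 lower). For interferon gamma associated genes, 9 in the fit reported, the count was 0 with library totals, 19 with DESeq2, 0 with the replicate block, 1 when tested against a log2 fold change of 1, 1 with limma on the authors' log2 values and 0 to 20 with each library left out.

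Over all genes, 216 were called higher and 451 lower. These counts were 0 and 0 with library totals, 542 and 1188 without the filter, 1277 and 2382 with DESeq2, 16 and 24 against a log2 fold change of 1, and 88 and 146 with limma on the authors' log2 values. Leaving out each library gave 0 to 6887 higher and 0 to 6922 lower. The replicate block gave 0 and 0 over all genes and 0 of the 35. The replicate numbers share only a number, since deviations of same-numbered libraries correlated at −0.108. The crossed pairing, added after seeing the data as was limma on the authors' log2 values, called 0 of the 35. Over all genes it called 202 higher and 643 lower, and of the 20 interferon gamma associated genes it called 8 higher.

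Signs turned for 9 of the 35 genes and for Becn1. With library totals alone Ifih1 was 0.81, Usp18 0.55, Ifit1 0.52, Cmpk2 0.72, Rtp4 0.66 and Becn1 0.36. Ifih1 was also 0.047 without the filter, 0.023 with DESeq2, 0.18 with limma-voom, 0.089 with the replicate block, 0.088 with the crossed pairing and 0.12 with the authors' log2 values. Cmpk2 was 0.0028 without the filter, 0.10 with limma-voom, 0.00045 with the replicate block and 0.00093 with the crossed pairing. Rtp4 was 0.010 without the filter, 0.033 with limma-voom and 0.038 with the authors' log2 values. With each library left out in turn, values ran from −0.48 to 0.64 for Ifih1, −0.57 to 0.24 for Usp18, −0.76 to 0.35 for Ifit1, −1.74 to 0.23 for Rsad2, −0.45 to 0.44 for Cmpk2, −0.30 to 0.24 for Rtp4, −0.18 to 0.59 for Oasl1, −0.37 to 1.68 for Oasl2 and −0.43 to 0.64 for Ifi44. The cause was not tested. With 1 to 8 reads in WT replicate 1 for Oas3 and Ifng, depth limits how precisely their fold changes are known.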
